A study of Mus musculus with 15 samples.

Results

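Cited1, Cited2 and Cited4 are the mouse genes of the CITED family, and 5 probe sets of the array measured these 3 genes, out of 45101 probe sets for 18194 genes. They were chosen by gene symbol, with earlier values of these arrays known, because Cited1 stood high in the mandibular branch of the first branchial arch. The measured difference between the wild-type branches is therefore given for all 3 genes as a description, with no test. Cited1 fell in the Dlx5/6 mutant mandibular branch, 1 of the 2 Cited2 probe sets rose there, and no Cited4 difference was called.

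CITED proteins do not bind DNA themselves. They bind the histone acetyltransferases EP300 and CREBBP through an acidic C-terminal domain, and they link them to DNA-bound factors such as the AP-2 proteins and SMADs. CITED2 is also known as a negative regulator of the hypoxia response, since it competes with HIF1A for the same surface of EP300 and CREBBP, and mice without it have defects of the heart, the adrenal gland, the neural tube and left-right patterning. The first arch is the embryonic swelling that builds the jaws, and Dlx homeobox genes of its neural crest mesenchyme set its upper (maxillary) and lower (mandibular) identity.

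RNA was taken from mouse embryos at E10.5 (days of gestation) and read on 15 Affymetrix arrays, 3 in each of 5 groups: the wild-type mandibular branch (WT_MNA), the Dlx5/6 mutant mandibular branch (5_6_MNA), the KO maxillary branch (KO_MXA), and the wild-type maxillary branch under 2 tags, WT_MXA (set 1) and WT_MXA2 (set 2). The tags of the KO arrays name no gene, the shared description lists dlx2, dlx1/2 and Dlx5/6 mutants, and nothing in the labels says what separates set 1 from set 2. No strain, allele or sex is given. The labels name no source embryo for an array and describe the dissection only as a plan that foresaw pooled arches, so the p-values measure the spread between these arrays, which may be technical. In whole tissue, fewer cells of a type and less RNA per cell cannot be told apart.

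The targeted genes were read first. Dlx5 signal was 10.9 ± 2.97 (SD, n = 3) in the Dlx5/6 mutant arrays and 727 ± 40.5 in the wild-type mandibular arrays, and Dlx6 signal was 3.32 ± 1.52 and 249.6 ± 51.3 in the same groups. On the arrays of the KO maxillary branch Dlx2 was 3.36 ± 0.180 and Dlx1 was 209 ± 11.7, against 422 ± 20.1 and 711 ± 30.8 in set 2. The median signal of an array lay between 26.6 and 33.4, and arrays of 1 group correlated at 0.984 to 0.990. The dap spike-in control, a bacterial RNA added during preparation, read 287 to 340 on the 9 wild-type mandibular, mutant mandibular and set 1 arrays, and 2564 to 2821 on the 6 arrays of set 2 and the KO group. Comparisons were therefore made within those array sets: the Dlx5/6 mutant mandibular branch against the wild-type mandibular branch and against set 1, and the KO maxillary branch against set 2.

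The RefSeq promoter table (GRCm38.p6) held all 3 genes, and the 250 bases before the transcription start are shown because the arrays compare Dlx homeobox mutants and because CITED proteins work with AP-2 and HIF factors. Cited1 lies on chromosome X (chrX:102247378-102252181), Cited2 on chromosome 10 (chr10:17723228-17725674) and Cited4 on chromosome 4 (chr4:120666563-120667820). Capitals mark matches to TAAT, a core of homeodomain sites, to ACGTG, the core of HIF sites, and to TATAAA, the TATA box, on either strand. The TATAAA search was added after the sequences had been seen. The windows lie at chrX:102252182-102252431 (minus strand, the first of 3 listed starts), chr10:17722978-17723227 (plus strand) and chr4:120666313-120666562 (plus strand), and each reads 5′ to 3′ towards the gene.
Cited1: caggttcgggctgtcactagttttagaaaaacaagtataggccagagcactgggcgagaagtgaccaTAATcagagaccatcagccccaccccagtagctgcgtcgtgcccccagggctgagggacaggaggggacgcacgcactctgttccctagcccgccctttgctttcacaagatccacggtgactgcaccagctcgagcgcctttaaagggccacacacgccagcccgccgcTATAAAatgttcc
Cited2: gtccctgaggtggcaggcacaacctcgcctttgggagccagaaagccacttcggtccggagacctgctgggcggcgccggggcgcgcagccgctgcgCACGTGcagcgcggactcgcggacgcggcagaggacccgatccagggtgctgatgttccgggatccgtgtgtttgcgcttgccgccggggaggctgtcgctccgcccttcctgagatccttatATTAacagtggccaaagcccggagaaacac
Cited4: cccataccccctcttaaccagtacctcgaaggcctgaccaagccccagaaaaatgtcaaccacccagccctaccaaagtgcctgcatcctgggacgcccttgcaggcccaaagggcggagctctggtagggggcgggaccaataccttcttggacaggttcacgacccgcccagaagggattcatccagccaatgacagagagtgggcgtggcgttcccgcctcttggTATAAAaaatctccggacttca

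The first Cited1 start had 1 TAAT, at bases -183 to -180 (the base before the start is -1), and a TATAAA at -13 to -8. The window of the second Cited1 start, not printed, had TAAT at -135 to -132 and at -132 to -129, ACGTG at -108 to -104 and TATAAA at -115 to -110. Cited2 had 1 TAAT on the minus strand at -30 to -27, and ACGTG on both strands, which overlap as CACGTG at -153 to -148. Cited4 had a TATAAA at -22 to -17. The longer homeodomain core TAATTA, which contains TAAT, was in none of the windows of the Cited starts. Of 32851 promoter windows of the same length in the table, 54.9% held TAAT, 4.84% TAATTA, 16.6% ACGTG and 12.4% TATAAA. GCCNNNGGC, the core of AP-2 sites, was in 13.7% of all windows and, among the Cited starts, in the window of the third Cited1 start alone. GC content was 58.0% in the Cited1 and Cited4 windows and 66.8% in the Cited2 window, against a median of 52.4% over all windows. These matches describe letters in a window and do not show binding.

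Cited1 was read by 1 probe set, 1449031_at. Its deposited signal (linear intensity) was 568, 610.0 and 598 on the 3 wild-type mandibular arrays and 194, 198 and 178 on the Dlx5/6 mutant mandibular arrays. It was 140.3, 134 and 139.7 on the KO maxillary arrays, 105, 109 and 88.2 in set 2, and 96.3, 76.5 and 77.1 in set 1. The order of the groups was thus wild-type mandibular, Dlx5/6 mutant mandibular, KO maxillary, set 2, set 1, and the ranges of neighbouring groups overlapped only between set 2 and set 1. The group means were 592 ± 21.6, 190.1 ± 10.49, 138 ± 3.21, 101 ± 11.1 and 83.3 ± 11.3 (SD, n = 3 each).

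**Figure D1:**
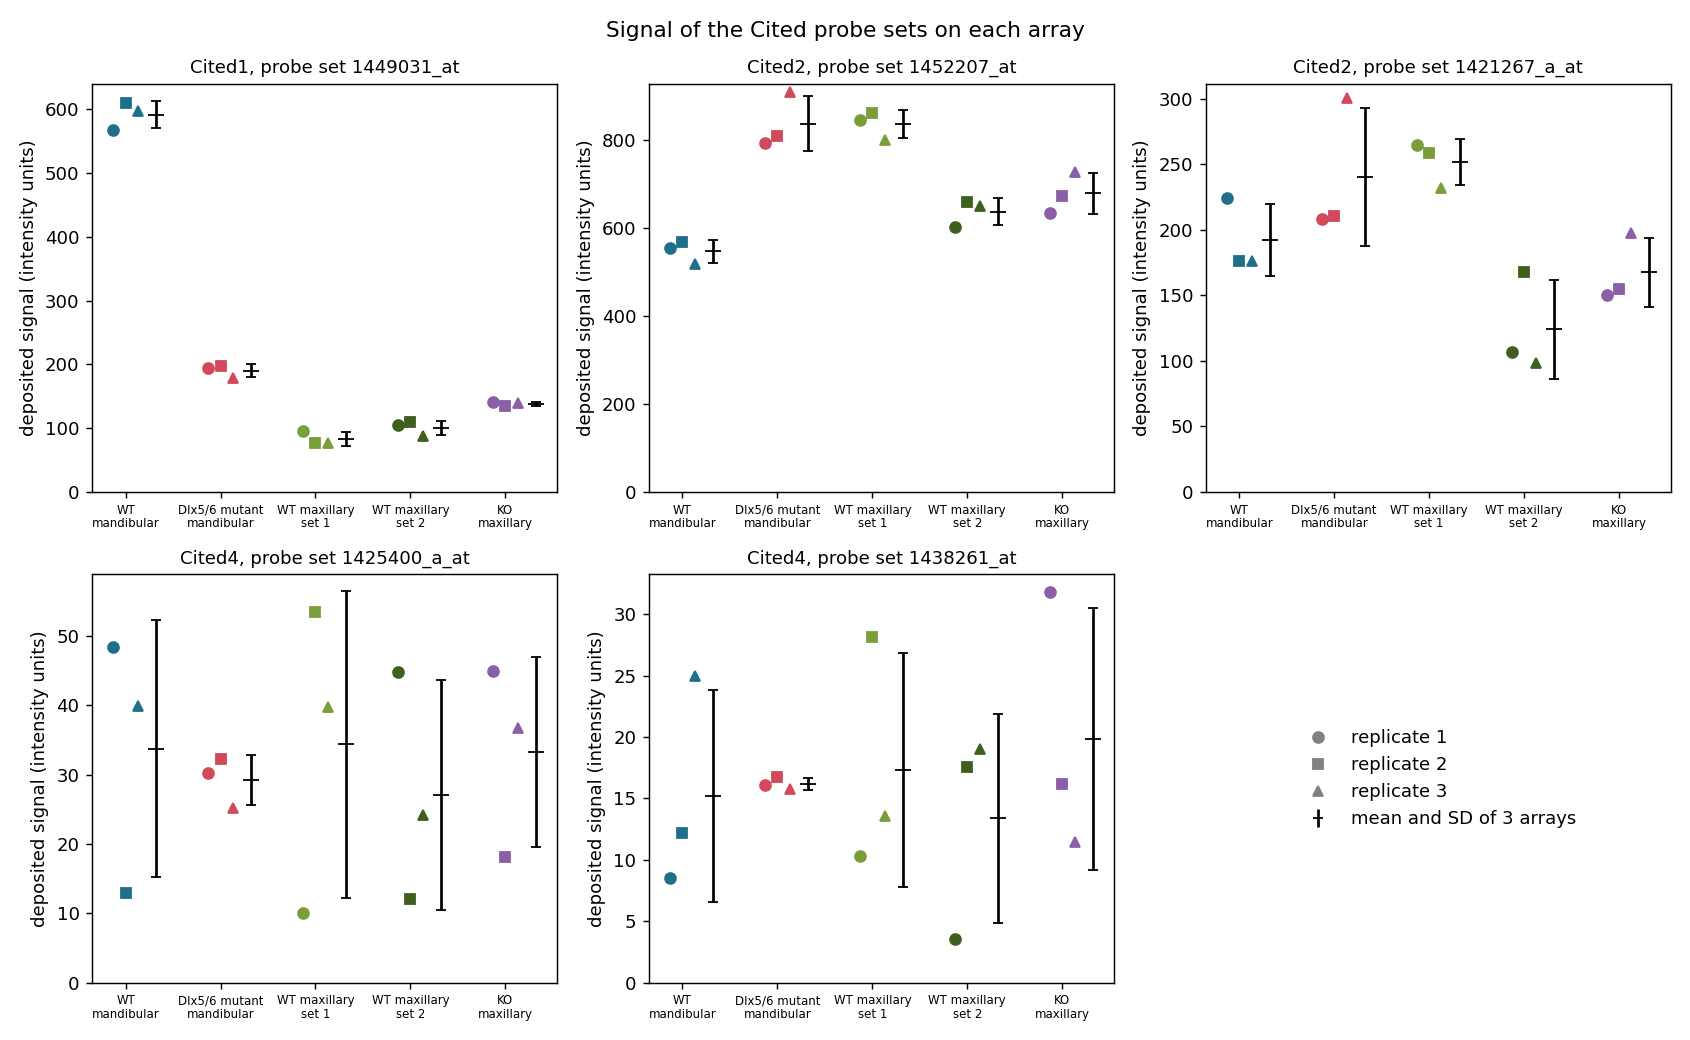
Deposited signal (intensity units, linear axis from 0) of each of the 5 Cited probe sets on the 15 arrays, by group, with 1 symbol per replicate and the mean and SD of 3 arrays. Cited1 sits between 568 and 610.0 on the wild-type mandibular arrays and at or below 198 on all others, Cited2 probe set 1452207_at is lowest on the wild-type mandibular arrays, and the groups overlap for both Cited4 probe sets.

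All differences that follow are on the log2(signal + 32) scale after quantile normalization, with ± as the SE from limma, and adjusted p-values are from limma with Benjamini-Hochberg adjustment over 31643 probe sets; adding 32 understates the changes of dim genes. Called means an adjusted p below 0.05. Between the wild-type branches, the contrast that chose the gene, Cited1 differed by 2.43 ± 0.10 (5.39-fold) from set 1 and by 2.20 ± 0.10 from set 2, higher in the mandibular branch.

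In the Dlx5/6 mutant mandibular branch Cited1 fell by 1.47 ± 0.10 (95% interval -1.68 to -1.26, adjusted p = 1.3e-09), a 2.77-fold drop against the wild-type mandibular branch. Those wild-type arrays also served to choose Cited1, so the size of the fall is not independent of that choice. All 3 mutant arrays lay below all 3 wild-type arrays. Of the 5 Cited probe sets, 2 were called in this comparison, 1 in each direction, beside 2.66% of all probe sets tested. By size of change Cited1 was the 10th lowest of 13934 genes. The count behind that percentage fell from 841 probe sets to 499 without mutant replicate 2 and to 520.0 without mutant replicate 3.

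The mutant mandibular branch was also set against the wild-type maxillary branch of the same array set, to compare the mutant level with the maxillary one. Both comparisons use the same 3 mutant arrays. Cited1 remained 0.96 ± 0.10 higher in the mutant mandibular branch than in set 1 (interval 0.75 to 1.17, adjusted p = 3.56e-06), a 1.95-fold difference with no overlap of the arrays. The set 1 arrays belong to the wild-type maxillary groups used in choosing Cited1, so this difference is not independent of that choice either. It was the only called probe set of the 5, beside 0.594% of all probe sets, and that background count fell from 188 to 119 without mutant replicate 2. Hand2, a Dlx5/6-dependent factor of the mandibular branch, was at 1665 ± 51.2, 194 ± 6.91 and 13.5 ± 3.84 in the wild-type mandibular, mutant mandibular and set 1 groups. On this probe set it thus also kept an intermediate level in the mutant. Its other probe set was at -1.84 against the wild-type mandibular branch (called) and at 0.20 against set 1 (not called, adjusted p = 0.83).

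In the KO maxillary branch the 3 Cited1 signals (134 to 140.3) all lay above the 3 of set 2 (88.2 to 109). The difference was 0.34 ± 0.10 (interval 0.13 to 0.55) and was not called (unadjusted p = 0.00285, adjusted p = 0.145). None of the 5 Cited probe sets was called in this comparison, beside 0.913% of all probe sets; at an unadjusted p under 0.05 there were 2, Cited1 and the second Cited2 probe set. The background count of 289 fell to 187 without KO replicate 2, to 175 without set 2 replicate 1 and to 179 without set 2 replicate 3. Against set 1, a comparison that crosses the array sets, Cited1 was 0.57 higher in the KO arrays and passed the threshold (adjusted p = 0.000603), with 3310 probe sets called over the whole array.

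The effects of the 2 mutant groups on Cited1 were then compared directly, as the Dlx5/6 mandibular effect minus the KO maxillary effect. The difference was -1.81 ± 0.14 (interval -2.10 to -1.51, adjusted p = 2.05e-08). It includes the wild-type mandibular and set 2 arrays, whose groups were used in choosing Cited1, so it is not independent of that choice. Of the 5 Cited probe sets 2 were called in this test, beside 1.09% of all probe sets. Branch and genotype change together in it, so their parts cannot be told apart.

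Cited2 moved the other way. Its brightest probe set, 1452207_at, read 556, 569 and 519 on the wild-type mandibular arrays, and 794, 809 and 909 on the Dlx5/6 mutant mandibular arrays. It read 847, 861 and 801 in set 1, 602, 659 and 652 in set 2, and 635, 673 and 729 in the KO maxillary arrays. Mutant mandibular (837 ± 62.8) and set 1 (837 ± 31.6) shared the highest level, KO maxillary (679 ± 47.3) and set 2 (637 ± 30.9) overlapped below it, and the wild-type mandibular arrays (548 ± 26.0) lay under all others (SD, n = 3 each).

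Against the wild-type mandibular branch, Cited2 rose by 0.59 ± 0.07 in the Dlx5/6 mutant (interval 0.44 to 0.74, adjusted p = 1.62e-05), or 1.505-fold, and all 3 mutant arrays lay above all 3 wild-type arrays. It was the 98th highest of 13934 genes. Against set 1 its difference in the mutant was -0.01 ± 0.07 (interval -0.16 to 0.14, adjusted p = 0.987). Between the wild-type branches, as a description, Cited2 was at -0.60 ± 0.07 in the mandibular branch relative to set 1 and at -0.23 ± 0.07 relative to set 2. Set 1 itself was 0.38 above set 2, and set 1 and set 2 belong to different array sets.

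Between the KO and set 2 arrays Cited2 differed from set 2 by 0.10 ± 0.07 (interval -0.05 to 0.26, adjusted p = 0.692) and the arrays overlapped. Against set 1 the value was -0.27 (adjusted p = 0.0185), so the direction turned with the wild-type control. The difference of the mutant effects was 0.49 ± 0.10 (interval 0.27 to 0.70, adjusted p = 0.016). That call was lost without Dlx5/6 mutant replicate 3 (adjusted p = 0.0629), without KO replicate 1 (0.0638) or without set 2 replicate 2 (0.0504), where the value stayed between 0.43 and 0.46. It was also lost in a fit without the intensity trend (adjusted p = 0.101).

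The second Cited2 probe set, 1421267_a_at, did not share these calls. Its signals were 224, 176 and 176 in the wild-type mandibular arrays, 209, 211 and 301 in the Dlx5/6 mutant arrays, 265, 258 and 232 in set 1, 106, 168 and 98.4 in set 2, and 150.2, 155 and 198 in the KO arrays. Neighbouring groups overlapped throughout its order. Its change in the Dlx5/6 mutant was 0.29 ± 0.15 (interval -0.02 to 0.60, adjusted p = 0.415), so the interval holds both 0 and the 0.59 of the brighter probe set. In the KO arrays it was 0.35 ± 0.15 above set 2 (interval 0.04 to 0.66, unadjusted p = 0.0276, adjusted p = 0.397), and its difference of the mutant effects was -0.06 ± 0.21 (adjusted p = 0.965). Relative to the wild-type mandibular branch it stood higher in set 1 and lower in set 2.

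**Figure D2:**
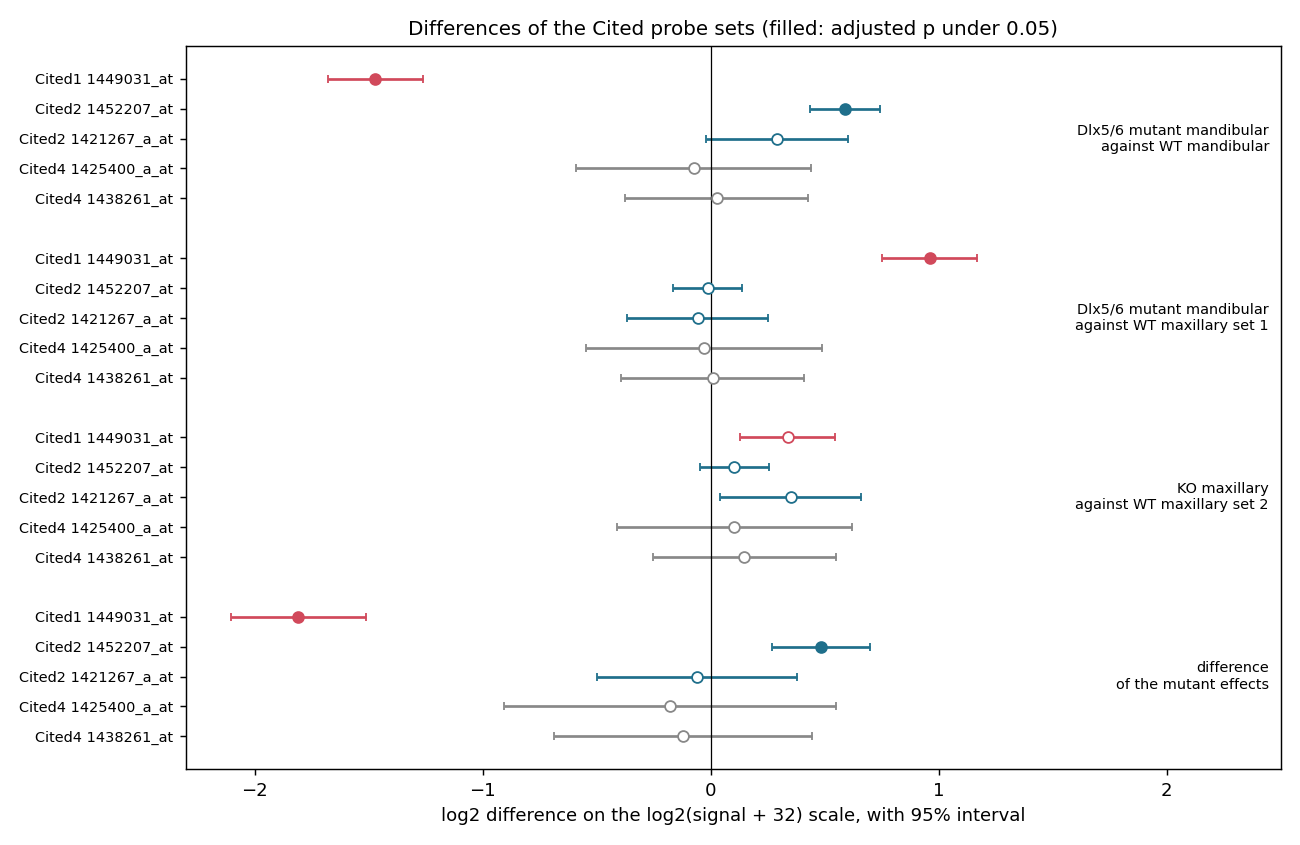
Log2 difference with 95% interval (x axis, log2(signal + 32) scale) of each Cited probe set in 4 comparisons, filled where the adjusted p from limma is under 0.05. Cited1 is filled at -1.47, 0.96 and -1.81, Cited2 probe set 1452207_at at 0.59 and 0.49, and all Cited4 intervals cross 0.

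Cited4 was dim. Probe set 1425400_a_at read 48.4, 12.9 and 39.96 in the wild-type mandibular arrays, 30.2, 32.3 and 25.2 in the Dlx5/6 mutant arrays, 10.1, 53.5 and 39.7 in set 1, 44.9, 12.1 and 24.2 in set 2, and 45.0, 18.2 and 36.7 in the KO arrays. It lay above its array's 40th percentile of signal (16.2 to 21.7) on 11 of 15 arrays. All groups overlapped, and group means ran from 27.0 to 34.4 with SDs of 3.62 to 22.2. The other Cited4 probe set, 1438261_at, ran from 3.58 to 31.8 and passed that percentile on 4 of 15 arrays.

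No Cited4 difference was called by limma, and none had an unadjusted p under 0.05. For 1425400_a_at the change was -0.07 ± 0.25 in the Dlx5/6 mutant (interval -0.59 to 0.44, adjusted p = 0.953) and 0.10 ± 0.25 in the KO (adjusted p = 0.937). It was -0.03 ± 0.25 between the mutant mandibular branch and set 1 (interval -0.54 to 0.49, adjusted p = 0.991), and the difference of the mutant effects was -0.18 ± 0.35 (adjusted p = 0.929). These intervals are wide, and the sign of these values changed when single arrays were left out.

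Cited1 lies on the X chromosome, and Xist, the RNA that coats the inactive X, differed between arrays. Xist signal ran from 266 to 666 on the wild-type mandibular arrays and from 249 to 297 on the Dlx5/6 mutant arrays, and averaged 508 in set 1, 723 in the KO arrays and 900.1 in set 2. In the Dlx5/6 mutant it fell by 0.77 ± 0.19 (adjusted p = 0.0234), a call that stood in 2 of 6 fits with 1 array left out, being lost without mutant replicates 2 or 3 or wild-type mandibular replicates 2 or 3 (adjusted p up to 0.163). Both other Xist probe sets were also called lower, at -0.55 (adjusted p = 0.0315) and -1.11 (1.04e-06). Of 459 X-linked genes 27 fell and 7 rose in that comparison (7.41%, median -0.04), against 3.16% of all 13934 genes (median -0.01). Cited1 was the second lowest X-linked gene after Gpr50 (-3.47). Against set 1, Xist was at -0.84 ± 0.19 in the mutant (adjusted p = 0.0311 from limma), a call lost in each of the 6 fits that left out 1 array. Its other probe sets were at -1.15 (called) and -0.45 (not called) there. Of the 459 X-linked genes, 4 were called higher and 3 lower against set 1 (1.53%, beside 0.782% of all genes). The part of X dosage in the Cited1 differences was not tested.

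Markers of other cell types moved with the Cited genes in some groups. The muscle list (8 of 8 genes kept) averaged 6.21 (array range 6.15 to 6.25, mean log2 level) in the wild-type mandibular arrays and 5.95 (5.86 to 6.01) in the Dlx5/6 mutant, and 5.83 to 5.91 in the maxillary groups, so it was highest where Cited1 was. Myf5, which starts the muscle programme, was the 1 of 8 called in the Dlx5/6 mutant (3.16% of all genes were), at -0.92 (16.7 against 59.9 in signal). Of the 8 muscle genes, 6 had negative and 2 positive values there (median -0.30). Limma put 2 of them at an unadjusted p under 0.05, beside 2010 of all 13934 genes. The macrophage list (10 of 10 kept) averaged 6.10 (6.07 to 6.13) in the wild-type mandibular arrays, 6.44 (6.41 to 6.48) in the mutant, 6.33 in set 1, 6.42 in set 2 and 6.70 in the KO, so it was lowest where Cited2 was. All 10 macrophage genes had positive values in the Dlx5/6 mutant (median 0.39) and 1 was called beside the same 3.16%, the macrophage growth factor receptor gene Csf1r (0.59). Limma put 7 of the 10 at an unadjusted p under 0.05. The part of muscle and macrophage RNA in the Cited differences was not tested.

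The sensory neuron list (10 of 12 kept) averaged 8.03 in set 1, 7.04 in set 2, 6.70 in the KO, 6.23 in the Dlx5/6 mutant and 5.94 in the wild-type mandibular arrays, and the glia list (3 of 4 kept) ran from 7.91 in set 1 to 6.51 in the wild-type mandibular arrays. In the Dlx5/6 mutant 2 of the 10 neuron genes were called, Neurod1 (0.56) and Sst (0.68), both higher, beside 3.16% of all genes. In the KO, 3 of 10 neuron genes were called lower and 2 of 10 macrophage genes higher than in set 2, beside 1.26% of all genes. Between the mutant mandibular branch and set 1, 10 of 10 neuron genes (median -1.93) and 3 of 3 glia genes (median -1.30) were called lower, beside 0.782% of all genes. The part of neuron and glia RNA in the Cited1 and Cited2 differences was not tested.

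The known partners of CITED proteins were followed on 12 of 16 listed genes (Tfap2e, Ppara, Pparg and Esr1 were too dim to be kept). In the Dlx5/6 mutant mandibular branch limma called 0 of 12, with a median of -0.02 beside -0.01 for all genes. It put 2 of the 12 at an unadjusted p under 0.05, beside 2010 of all 13934 genes. The acetyltransferase genes Ep300 and Crebbp were at 0.04 and 0.05. Of the 12, 2 were called in the KO maxillary branch, both higher, beside 1.26% of all genes. Tfap2a, the AP-2 gene of neural crest and face, rose by 0.62 ± 0.09 (398 ± 42.9 against 251 ± 18.2 in set 2, adjusted p = 0.000494). Of its other 2 probe sets, 1 was at 0.62 and called (adjusted p = 0.00334 from limma), and 1 was at 0.07 and not called. Lhx2, a LIM homeobox gene, rose by 0.74 ± 0.13 (115 ± 12.4 against 54.9 ± 4.84, adjusted p = 0.00395). The epithelium list (8 of 8 kept) averaged 8.11 (8.07 to 8.15) in the KO and 7.92 (7.90 to 7.96) in set 2, with 7 of 8 genes positive. Of the 8, limma called 0 and put 5 at an unadjusted p under 0.05, beside 1619 of all 13934 genes. The endothelium list (8 of 8 kept) averaged 7.34 (7.28 to 7.42) and 7.04 (6.94 to 7.12), with 8 of 8 positive and 1 called, the endothelial surface gene Emcn (0.47, adjusted p = 0.00964). The part of epithelial and endothelial RNA in the KO differences was not tested. Between the mutant mandibular branch and set 1, 1 of 12 was called, beside 0.782% of all genes: Tfap2b at -0.52 (adjusted p = 0.0369), and that call was lost in each of the 6 fits that left out 1 array.

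Target genes of the pathways that CITED proteins act on were counted in the same way. Of 22 HIF target genes tested (24 listed), 1 was called in the Dlx5/6 mutant mandibular branch (4.55%, median 0.00), near the 3.16% of all genes. By limma, 7 of the 22 were at an unadjusted p under 0.05, beside 2010 of all 13934 genes. The called gene was Egln3, a prolyl hydroxylase gene, which fell by 0.65 ± 0.17 (43.9 ± 16.1 against 87.1 ± 14.3, adjusted p = 0.0408). That call was lost without mutant replicate 2, wild-type mandibular replicate 1 or wild-type mandibular replicate 2 (adjusted p up to 0.273), and the other Egln3 probe set was at -0.31 and not called. In the KO maxillary branch and against set 1 limma called 0 of 22 HIF targets, with medians of -0.03 and 0.01. It put 5 and 2 of them at an unadjusted p under 0.05, beside 1619 and 1244 of all 13934 genes.

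Of 15 tested TGF-beta, BMP and SMAD response genes (17 listed), 4 were called in the Dlx5/6 mutant mandibular branch (26.7%, 1 higher and 3 lower, median -0.03), beside 3.16% of all genes. By limma, 7 of the 15 were at an unadjusted p under 0.05, beside 2010 of all 13934 genes. Bambi, a decoy receptor of TGF-beta and BMP, fell by 0.78 (adjusted p = 4.91e-07), and Ccn2, a matricellular growth factor gene, fell by 0.75 (0.000282), and both stayed called in all 16 alternative fits. Msx1, a homeobox target of BMP, fell by 0.57 (0.017) but was called in 2 of 6 fits with 1 array left out, being lost without mutant replicates 1 or 2 or wild-type replicates 1 or 3 (adjusted p up to 0.111). The other Msx1 probe set was also called lower by limma, at -0.50 (adjusted p = 0.00362). Tgfbi, an extracellular matrix gene, rose by 0.36 (0.0299) but was likewise called in 2 of 6, being lost without replicates 2 or 3 of either group, and its other 3 probe sets were not called.

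Of the same 15 genes, 3 were called in the KO maxillary branch (2 higher, 1 lower), beside 1.26% of all genes. Tgfbi rose by 0.88 (adjusted p = 2.77e-06), with all 4 of its probe sets called. Id3, an inhibitor of helix-loop-helix factors, rose by 0.27 (0.0136) and lost its call without KO replicates 2 or 3 or set 2 replicates 1 or 2. Msx2 fell by 0.36 (0.0487), and lost its call in each of the 6 fits with 1 array left out, while its other probe set was at 0.11. Against set 1, 0 of 15 were called for the mutant mandibular branch by limma, with a median of -0.05. At an unadjusted p under 0.05 limma put 3 of the 15, beside 1244 of all 13934 genes.

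Of the left-right genes around Cited2, 4 of 8 could be tested (Nodal, Lefty1, Cfc1 and Acvr2b), and limma called 0 in the Dlx5/6 mutant, the KO or the mutant against set 1 (0, 1 and 0 at an unadjusted p under 0.05). Of 4 tested growth and chromatin genes linked to Cited2, 1 was called in the Dlx5/6 mutant, beside 3.16% of all genes: Myc, a growth-promoting transcription factor gene, rose by 0.58 (233 ± 17.6 against 149 ± 20.8, adjusted p = 0.00548). Limma called 0 of these 4 in the KO or against set 1 (1 each at an unadjusted p under 0.05). The all-gene counts at that level were 2010, 1619 and 1244 of 13934 in the Dlx5/6 mutant, the KO and the mutant against set 1.

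**Figure D3:**
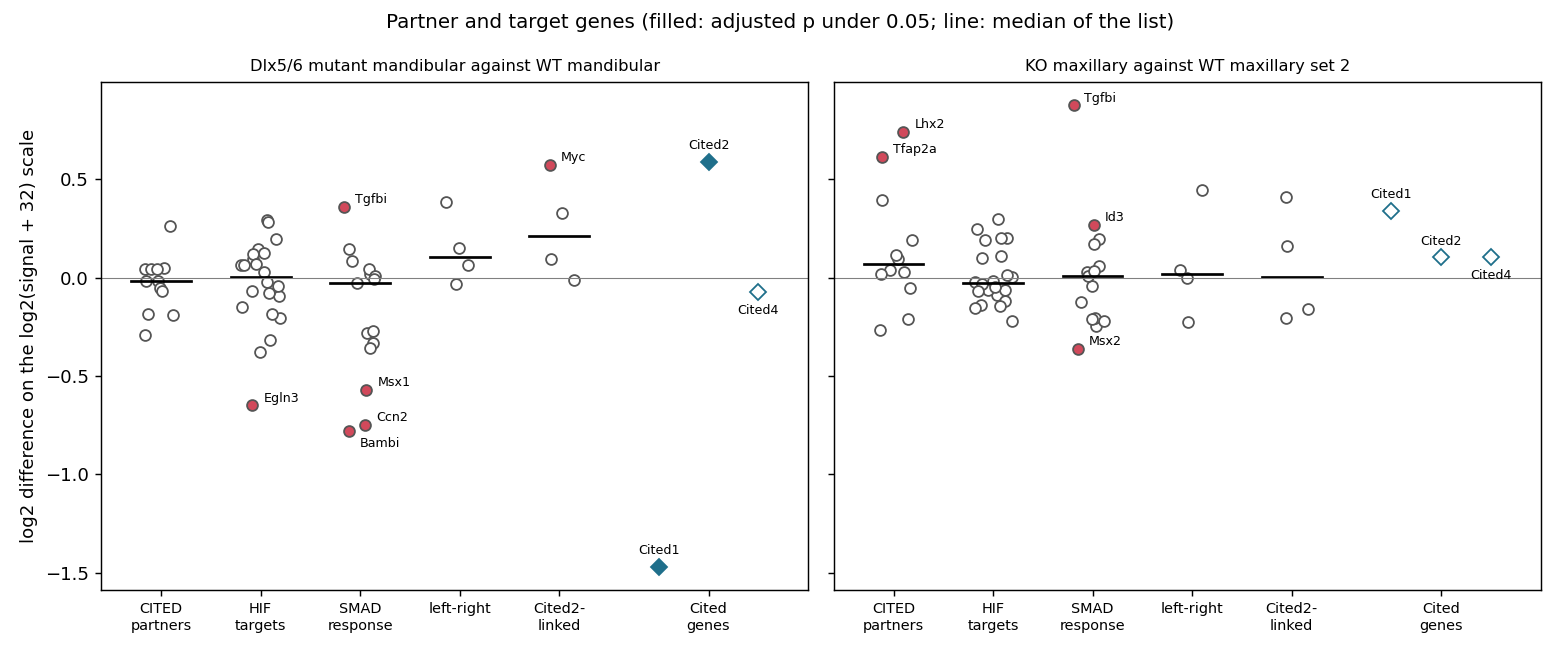
Log2 difference (y axis, log2(signal + 32) scale) of each tested partner or target gene in the Dlx5/6 mutant mandibular branch against wild type (left) and in the KO maxillary branch against set 2 (right), as points spread sideways for visibility, filled and named where the adjusted p is under 0.05, with a line at each list's median. Diamonds show Cited1, Cited2 and Cited4; most list members and all CITED partners on the left are open, and Bambi and Ccn2 are the lowest filled list members.

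Genes with the pattern most like each Cited gene were ranked by Pearson r of log2 levels over all 15 arrays, and over the 9 arrays of the mandibular groups and set 1. The arrays of a group share its level, so r is a description over 13933 genes. Over 9 arrays Cited1 was most like Hand2 (r = 0.994), Lrrc17 (0.992), Rgs5 (0.991), Rps6ka6 (0.990) and the noncoding RNA Dlx6os1 (0.989). Over 15 arrays the nearest were Rgs5 (0.975), Rps6ka3 (0.966), Unc5c (0.964), Pmp22 (0.963) and Lrrc17 (0.963). Rps6ka3 and Rps6ka6, both ribosomal S6 kinase genes, lie on the X chromosome as Cited1 does.

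On the probe set that read each of them, these genes had intermediate means in the mutant mandibular branch, as Cited1 did. Rgs5, a regulator of G-protein signalling, was at 242 ± 11.2 in the wild-type mandibular, 76.4 ± 12.2 in the mutant and 30.6 ± 7.06 in the set 1 arrays. Dlx6os1 was at 422 ± 25.1, 66.4 ± 8.27 and 13.3 ± 6.11. Hand2, given above, also stood between on the probe set that read it. Rps6ka3, Unc5c, Pmp22 and Rps6ka6 were 0.22, 0.39, 0.47 and 0.27 higher in the mutant than in set 1. On other probe sets the differences from set 1 were smaller, with Rgs5 at -0.07, 0.48 and 0.28 and Lrrc17 at -0.05. Against the wild-type mandibular branch the same probe sets were at -0.37, -0.93 and -0.99 for Rgs5 and 0.06 for Lrrc17. The Lrrc17 one hardly moved in either comparison, so it does not place the mutant level. The genes were chosen for following Cited1 on arrays that include these groups, so their intermediate levels are a description and were given no test.

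Cited2 over 9 arrays was most like Sfrp2 (r = 0.985), Rspo3 (0.985), Lhx6 (0.984), Pou3f3 (0.983) and Col1a2 (0.981). Sfrp2 and Rspo3 encode secreted modulators of Wnt signalling, Lhx6 and Pou3f3 homeobox factors of the arch, and Col1a2 a collagen chain. Between the mutant mandibular branch and set 1 their differences ran from -0.13 to 0.11 beside the -0.01 of Cited2, which follows from how they were chosen and was given no test. Over 15 arrays the nearest were Col1a2 (0.914), Ebf2 (0.908), Dusp6 (0.907), Fdps (0.907) and Map2 (0.885). The KO and set 2 arrays had no part in the ranking over 9 arrays. Against set 2, on the KO arrays, Lhx6 fell by 1.42 (adjusted p = 7.17e-10) and Pou3f3 fell by 0.77 (1.05e-05), while Col1a2 rose by 0.52 (5.13e-05) and Cited2 was at 0.10. Sfrp2 (-0.15) and Rspo3 (-0.33) were not called in the KO against set 2. In that comparison the other Lhx6 probe set was called (-0.87) and the other Pou3f3 probe set was not (-0.41). The other Col1a2 probe sets were at 0.49 (called) and 0.47 (not called). Against set 1 Col1a2 was at -0.21 in the KO arrays, so its direction turned with the control.

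Cited4 had no comparably close neighbour over 15 arrays, where the highest r were those of Elk1 (0.805), Arl2 (0.781), Tsc22d4 (0.765), Bik (0.762) and Cluh (0.757). Over 9 arrays they were Zbtb37 (0.975), Gaa (0.920), Alox12e (0.916), Oat (0.914) and F2rl3 (0.905). They are named only as the nearest by r.

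**Figure D4:**
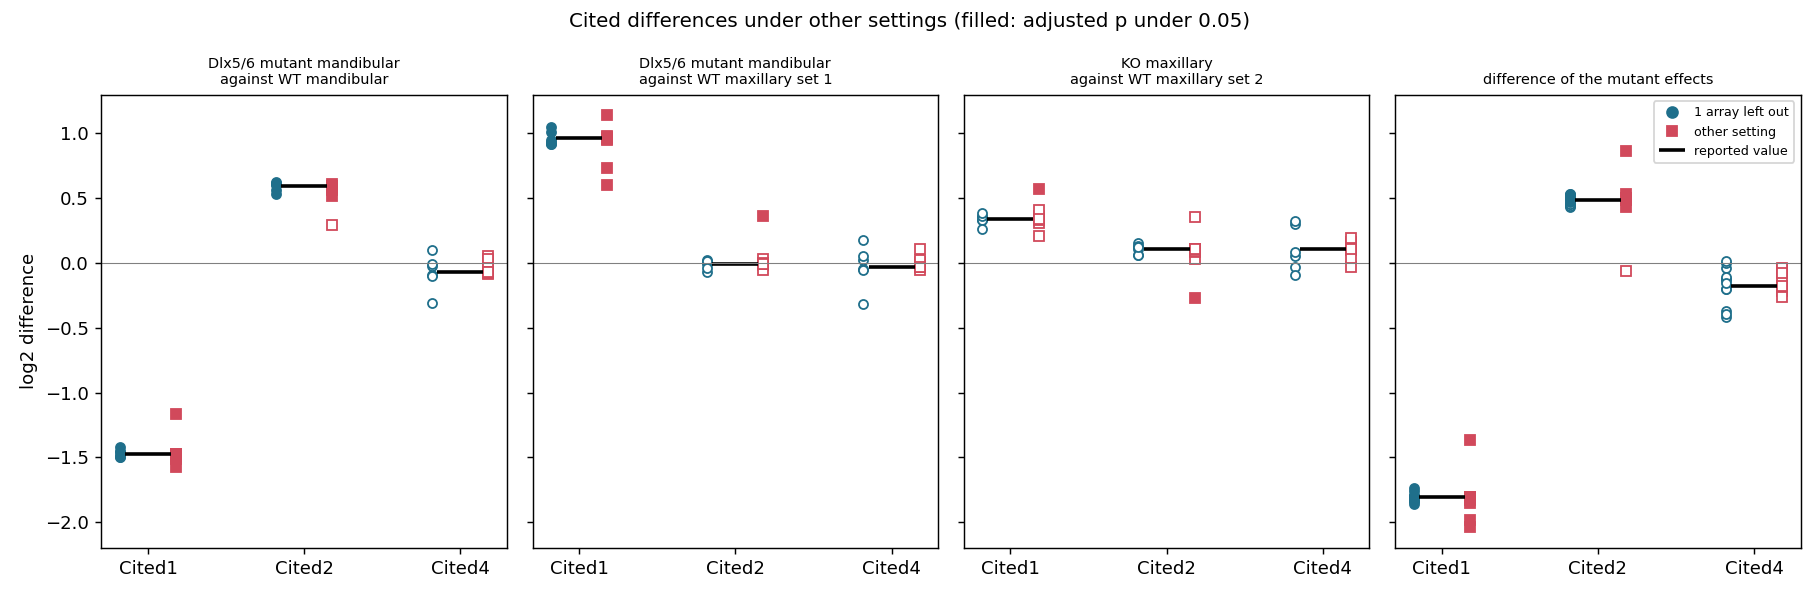
Log2 difference (y axis) of Cited1, Cited2 and Cited4 in 4 comparisons under other settings, with circles for fits that leave out 1 array, squares for other settings, filled where the adjusted p is under 0.05, and a black bar for the reported value. Cited1 stays filled, between -1.58 and -1.16, in the Dlx5/6 mutant against wild-type mandibular branch, and Cited4 lies on both sides of 0.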

How the data were processed

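The deposited values were intensity values on a linear scale, 1 per probe set and array, and their mean with 2% trimmed at each end was 150.0 on every array, so they had been scaled before deposition. Scanner software, summary method and background correction are not given in the sources used here. From them log2(value + 32) was computed and quantile normalized over 15 arrays. Probe sets whose signal passed the 40th percentile of 3 or more arrays were kept (31643 of 45101), and a gene was read by its brightest kept probe set with 1 symbol. limma 3.58.1 in R 4.3.3 fitted 1 mean per group (10 residual degrees of freedom, intensity trend, two-sided tests), and the procedure was tested on simulated data. The number of arrays limits the precision. The probe table gave 1 symbol for 34958 probe sets, several for 932 and none for 9211; identifiers of 34754 were in RefSeq. The members, gene lists, tests and other settings were chosen with earlier results of these data known. Named genes were the members, Dlx1, Dlx2, Dlx5, Dlx6, Hand2, Pou3f3, Xist, up to 4 called genes per list with the largest change, the 5 genes most like each member, and markers of cell types that moved with one; Ep300, Crebbp, the left-right genes and the genes too dim to keep were named as list members and Gpr50 as an X-linked gene, after their values were seen. Other normalizations, pseudocounts, filters, variance models, controls and left-out arrays were tried as alternatives. Protein sequences were not used here.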

Additional observations from a re-analysis of the deposited data

Results flagged for a closer look

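The Dlx5/6 mandibular effect and the KO maxillary effect differed for 2 of the Cited genes in a test of the difference itself (limma, adjusted over all probe sets). For Cited1 the difference was -1.81, since it fell in the mutant mandibular branch and was at 0.34, not called, in the KO maxillary branch. The wild-type groups in that difference also served to choose Cited1, so the value is not independent of that choice. For Cited2 the difference was 0.49, since Cited2 rose in the mutant mandibular branch and was at 0.10, not called, in the KO. The second Cited2 probe set was at -0.06. Groups of 3 arrays were too small for a check of single outlying arrays.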

How the results depend on the processing

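Over 19 results and 299 alternatives, 257 were counted as the same. For tested differences this meant the same direction and the same side of the threshold. For counts of called probe sets it meant a similar size, and for the untested wild-type differences a similar value in the same direction. Cited1 stayed called in all alternatives of 3 comparisons: -1.58 to -1.16 against the wild-type mandibular branch (16 alternatives, adjusted p up to 6.44e-07), 0.60 to 1.14 against set 1 (17, up to 0.000309) and -2.04 to -1.37 for the difference of the mutant effects (23, up to 4.23e-06). All 3 comparisons use wild-type groups that served to choose Cited1, so these calls are not independent of that choice. With the other wild-type maxillary control, which crosses the array sets, Cited1 in the KO became 0.57 (adjusted p = 0.000603), Cited2 in the KO -0.27 (0.0185), Cited4 in the KO -0.035, and Cited2 and Cited4 in the mutant mandibular branch 0.36 (0.00185) and 0.11; Cited1 and Cited2 between the wild-type branches moved to 2.20 and -0.23, and Col1a2 in the KO to -0.21. The other probe set gave 0.29 (adjusted p = 0.415) for Cited2 in the Dlx5/6 mutant, -0.061 for its difference of the mutant effects, and 0.027 and 0.010 for Cited4 against wild-type mandibular and set 1. Array weights gave 0.052 for Cited4 in the Dlx5/6 mutant and 0.00011928 for Cited2 against set 1, a common median 0.028 for the latter, and a pseudocount of 8 gave 0.024 for Cited4 against set 1. Without the intensity trend the Cited2 difference of effects stayed at 0.49 but lost its call (adjusted p = 0.101), and the calls numbered 452, 172, 125 and 219 in place of 841, 289, 188 and 346 (Dlx5/6 mutant, KO, mutant against set 1, difference of effects). With the other control the last 3 counts were 3310, 3536 and 2246. The cause was not tested.

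Leaving out 1 array gave -0.31 to 0.10, -0.091 to 0.32, -0.32 to 0.18 and -0.42 to 0.018 for Cited4 in the 4 comparisons, -0.070 to 0.025 for Cited2 against set 1 and 0.43 to 0.53 for its difference of effects. Cited1 in the KO ran from 0.26 to 0.39. The counts ran from 499 to 653, 175 to 222, 119 to 142 and 261 to 309. Arrays with the same replicate number did not deviate together (30 correlations of residuals, -0.0958 to 0.0846), and the labels give no pairing. With the replicate block Cited1 was at -1.47 (adjusted p = 7.64e-09), Cited2 at 0.59 (3.64e-05) and 0.49 (0.0215), and 779, 260.0, 177 and 333 probe sets were called, and the block changed no call of a Cited gene, while Egln3 in the Dlx5/6 mutant and Msx2 in the KO lost their calls with it. Few arrays per group and dim Cited4 signal limit what could be seen.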
